A study of Mus musculus with 6 samples.

Results

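Translation initiation and elongation factors are the proteins that bring the ribosome to an mRNA, find the start codon and then carry the ribosome along the coding sequence. Their genes were taken here by symbol, as the autosomal protein-coding genes named Eif or Eef followed by a digit, without the Eif2ak kinases. This gave 61 genes among the 21780 of the count table, of which 58 had enough counts to be tested. They were measured in CD45+CD11b+ cells, a sort that holds monocytes, macrophages, neutrophils and other myeloid cells, taken from the pancreas of C57BL/6 mice. The mice were given PBS or 1 mg of WGP, a particulate yeast β-glucan, by a single intraperitoneal injection, and the pancreas was taken 7 days later, giving 3 PBS and 3 WGP libraries of polyA RNA. Male and female mice aged 6 to 8 weeks were used in the study. Per the study each sample came from its own animal within a single experiment, and the sex of the animal behind each library is not given in the sources used here. The comparison asks which translation factor mRNAs differed in pancreatic myeloid cells after β-glucan.

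In initiation, eIF2 with bound GTP delivers the initiator tRNA to the small ribosomal subunit, the eIF4F complex recruits the capped mRNA, eIF3 bridges the complex and the ribosome, and eIF1, eIF1A and eIF5 govern recognition of the start codon. In elongation, eEF1A brings aminoacyl-tRNA to the ribosome and eEF2 moves the ribosome by 1 codon, and eEF2 is switched off when the kinase eEF2K phosphorylates it. Cells control bulk protein synthesis mostly by phosphorylation of these factors and of the eIF4E-binding proteins, which mRNA counts do not measure. Ribosomal protein genes are not among the genes of the table and were not analysed here.

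Start codon recognition is the step to which the clearest change belongs, and the sequences around the start codons of 4 genes are shown for that reason. Each line gives 12 bases before and 15 bases after the start codon of 1 GENCODE vM21 transcript (GRCm38), 5′ to 3′, with the start codon in capitals. Position -3 is the third base before the codon, and position 4 is the base after it, counting the A of the codon as 1.
Eif1: gaatcgtatcgtATGtccgctatccagaac
Eif1b: cactagtgtcgcATGtccactatccagaac
Eif5: taataagccaaaATGtctgtcaacgtcaac
Eef2k: cgcccccgcaacATGgcagacgaagacctc
A purine at -3 and a G at 4 are the bases that favour initiation. Eif1 and its close paralog Eif1b have neither, as 5 of 60 translation factor genes with a usable transcript do (8.33%, against 7.36% of 19231 protein-coding genes of the table). Eif5 has the purine only, and Eef2k has both bases, as do 30 of the 60 (50%, against 41.9%). At least 1 ATG lay upstream of the start codon in 19 of the 60 (31.7%, against 51.6%), and Eif5 had 3 in 374 bases of its 5′ leader while Eef2k had 0 in 346. The features were chosen with the results known and were put to no test.

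The sort and the libraries were checked before the genes were compared. Ptprc (CD45) and Itgam (CD11b) were present in all 6 libraries, at 949 to 1747 and 189 to 418 CPM (a gene's counts relative to the TMM-scaled total of its library, the scale used throughout unless RPKM is named). The makeup of the sorted cells differed between the groups. The summed level of 8 resident macrophage markers was 4480 to 11299 CPM in PBS and 790 to 1109 in WGP libraries, with 8 of 8 lower. The summed level of 8 Ly6C-high monocyte markers was 1684 to 3000 against 6301 to 8175, with 5 of 8 higher. B cell markers summed to 388 to 2599 against 93.7 to 182 (7 of 8 lower), acinar cell markers to 1465 to 5644 against 391 to 651 (9 of 9 measured lower), and 10 genes of the dissociation response to 24226 to 31470 against 8911 to 12218 (7 of 10 lower). No marker of these 5 lists was at 0 in all libraries. In bulk RNA, fewer cells of a type and less RNA per cell cannot be told apart, and the part of the cell makeup in the results below was not tested. Y-linked genes had 8972 and 10063 counts in PBS replicates 2 and 3 and 0 or 1 in the other 4 libraries, so the PBS libraries differed from each other in this as well. Y-linked RNA comes from male cells and was in no WGP library beyond 1 count, so sex was partly confounded with treatment. Sex and treatment cannot be fully told apart here. PBS replicate 1, without Y-linked counts, also held the most B cell, neutrophil, NK and cycling cell marker RNA.

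Of the 58 translation factor genes tested, 2 passed edgeR's quasi-likelihood test at an adjusted p of at most 0.05, and both, Eif5 and Eef2k, were lower in WGP. That is 3.45% of the tested genes, where 6.81% of all 14430 genes tested were lower. No gene of the family was higher, where 7.54% of all genes were. limma-voom also called 0 higher, and DESeq2 called 1, Eif4h. Over all 14430 genes, in either direction, edgeR called 2071, limma-voom 2040 and DESeq2 2692. The falls of Eif5 and Eef2k were also larger than 1 log2 unit, the size that 9.49% of all genes reached with that adjusted p in edgeR. At an unadjusted p under 0.05 there were 10 genes, 4 higher and 6 lower (17.2%, against 26% of all genes). The log2 fold change was above 0 for 28 genes and below 0 for 30, with a median of -0.01 against -0.05 over all genes tested. The median absolute log2 fold change was 0.16 against 0.54. The factors were measured with more counts than most genes, with a median of 18752.5 counts over the 6 libraries against 4258.5, and the median standard error (SE) was 0.18 against 0.33. For 46 of the 58 the 95% interval of the log2 fold change lay within 1 unit of 0, and for 20 within 0.5. The PBS and WGP libraries did not overlap for 6 genes that were lower (10.3%, against 16% of all genes) and 7 that were higher (12.1%, against 16%). The plot of fold changes by role shows Eif5 and Eef2k apart from the remaining genes of their groups.

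**Figure D1:**
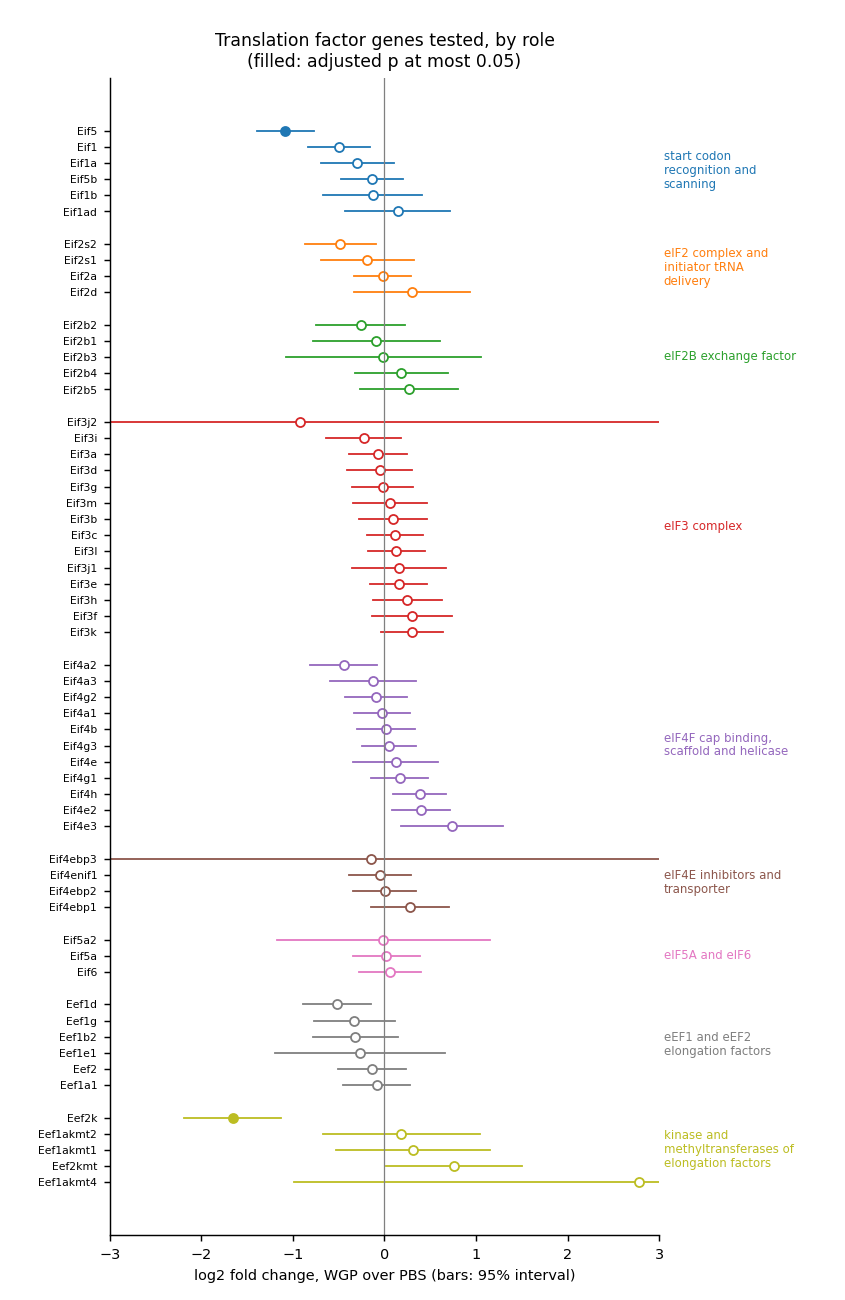
Log2 fold change of WGP over PBS for the 58 tested translation factor genes (x axis), grouped and coloured by role, with bars for the 95% interval from the edgeR fit. Filled points passed an adjusted p of 0.05, which are Eif5 at -1.08 and Eef2k at -1.66, and the intervals of the sparsely counted Eif3j2, Eif4ebp3 and Eef1akmt4 run past the axis.

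Eif5, the GTPase-activating protein that lets eIF2 hydrolyse its GTP once the start codon is found, fell in WGP. It lies at chr12:111538016-111546752 (mm10; ENSMUSG00000021282). Its level was 471, 427 and 411 CPM in PBS replicates 1 to 3 and 217, 191 and 210 CPM in WGP replicates 1 to 3. The groups did not overlap, and the lowest PBS library was well above the highest WGP library. The mean was 436 ± 31.4 CPM in PBS and 206 ± 13.8 CPM in WGP (SD, n = 3 each), 52.8% lower, with a log2 fold change of -1.08 (SE 0.14, adjusted p = 0.00054 in edgeR). It passed in all 18 refits with another scaling, filter, design, tool or set of libraries, with log2 fold changes of -1.19 to -1.03. Against PBS replicate 1 alone, which like the WGP libraries had no Y-linked counts, the log2 fold change was -1.19. In such a refit the spread comes from the WGP libraries only, and the single PBS library is assumed to vary like them. The 10 dissociation response genes also summed lower in every WGP library (8911 to 12218 CPM, against 24226 to 31470), with 7 of 10 lower. The part of that response, or of the cell makeup, in the fall of Eif5 was not tested.

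The other genes of start codon recognition moved less, and none of the 5 passed the test in edgeR or limma-voom. Eif1, which keeps the scanning ribosome open until the codon is matched and is displaced as eIF5 acts, was at 275, 222 and 201 CPM in PBS and 164, 161 and 169 in WGP. These groups did not overlap either, but the log2 fold change of -0.50 (SE 0.15) had an adjusted p of 0.0568 in edgeR. It passed in DESeq2 (adjusted p = 0.014), without PBS replicate 3 (0.0429) and in 5 other refits of 18, and was -0.36 (adjusted p = 0.1) without PBS replicate 1. The paralog Eif1b, with the same weak start context, was at 33, 31.8 and 54.7 CPM against 32.9, 42.2 and 34.1, a log2 difference of -0.13 whose 95% interval ran from -0.67 to 0.42. Eif1a, Eif1ad and Eif5b, the last a GTPase that joins the ribosomal subunits, had log2 fold changes between -0.30 and 0.14, where Eif1ad was 0.42 without PBS replicate 1 (adjusted p = 0.309). With PBS replicate 1 as the only PBS library Eif1ad was -0.29 and Eif1b 0.15, and without that library Eif1b was -0.25. Eif1ad and Eif5b overlap Banf1 and Rev1 on the other strand over 15.3% and 16.85% of their exons, so reads there cannot be assigned without strand, and Eif1 shares 16.9% of its 75-base windows with transcripts of other genes. Eif1b was named after its values were seen.

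Eef2k, the calcium and calmodulin dependent kinase that phosphorylates eEF2 and slows elongation, was the other gene that fell. It lies at chr7:120842831-120907450 (ENSMUSG00000035064). Its level was 69.8, 87.4 and 102 CPM in PBS and 32.9, 18.9 and 30.1 CPM in WGP. Every PBS library lay above every WGP library. The means were 86.3 ± 16 and 27.3 ± 7.4 CPM (SD, n = 3 each), 68.3% lower, with a log2 fold change of -1.66 (SE 0.24, adjusted p = 0.0011 in edgeR). It passed in all 18 refits, with log2 fold changes of -1.82 to -1.35 and adjusted p up to 0.043. The weakest of these, -1.35 with that adjusted p, was the refit with PBS replicate 1 as the only PBS library, and without that library the log2 fold change was -1.79. The resident macrophage markers were also lower in every WGP library (790 to 1109 CPM summed, against 4480 to 11299). Across libraries their order was that of Eef2k within PBS and the reverse within WGP. The part of these markers in the difference was not tested.

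**Figure D2:**
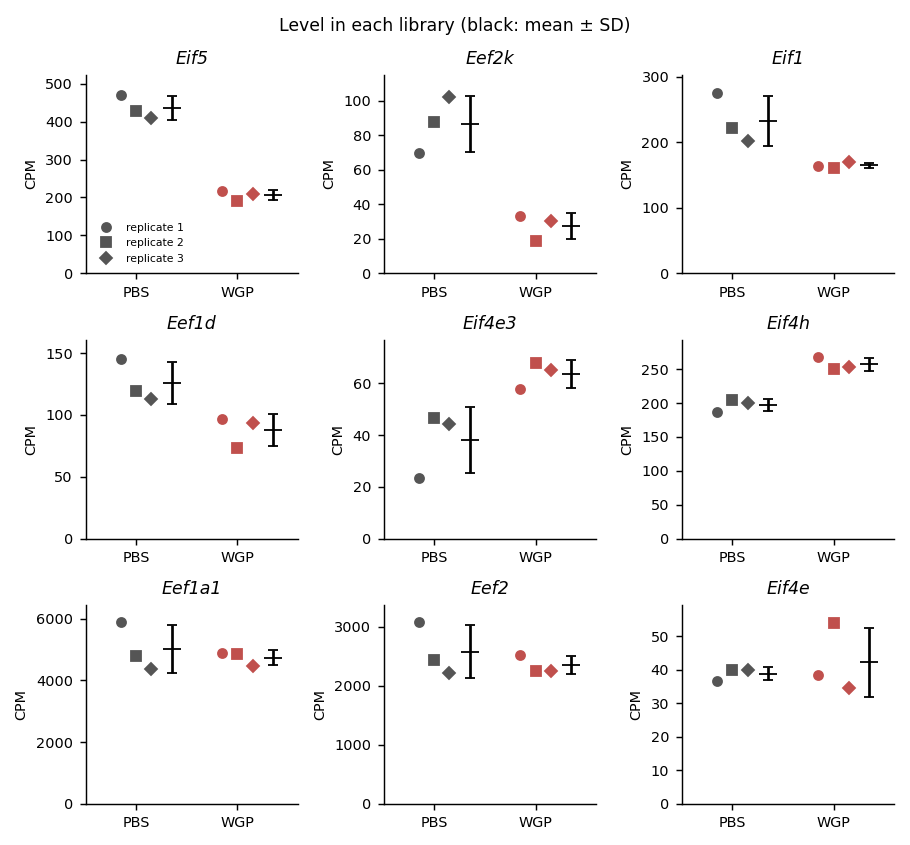
TMM-scaled CPM of 9 translation factor genes in each library (points, by replicate number), with the mean and SD of each group of 3 in black and axes from 0. Eif5 and Eef2k are separated by a wide gap, Eif1, Eef1d, Eif4e3 and Eif4h by a narrow one, and Eef1a1, Eef2 and Eif4e overlap between PBS and WGP.

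The elongation factors Eef1a1 and Eef2 were the most abundant of the 61 genes per length. Per kilobase of exon, Eef1a1, which delivers aminoacyl-tRNA, reached 2013 RPKM in PBS and 1900 in WGP, and Eef2, the translocase, 774 and 705. Eif5a, which relieves stalled ribosomes, came next at 173 and 176 RPKM. On the CPM scale Eef1a1 was at 5888, 4797 and 4372 in PBS and 4901, 4848 and 4464 in WGP. Eef2, the substrate of the kinase above, was at 3069, 2438 and 2207 CPM against 2523, 2255 and 2253. Both overlapped between the groups, with PBS replicate 1 the highest library, and their log2 fold changes were -0.08 (95% interval -0.45 to 0.28) and -0.13 (-0.51 to 0.24). Without PBS replicate 1 these became 0.05 and 0.01.

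All 6 tested eEF1 and eEF2 genes had a log2 fold change below 0, with a median of -0.29, but edgeR and limma-voom called none of them. Only 1 had an unadjusted p under 0.05, where 26% of all genes did, and it was called by DESeq2. That gene was Eef1d, a subunit of the exchange factor that recharges eEF1A with GTP, at 145, 119 and 113 CPM in PBS and 96.7, 73.2 and 93.1 in WGP (log2 fold change -0.52, SE 0.17, adjusted p = 0.0659 in edgeR, 0.0321 in DESeq2). Its groups did not overlap, and without PBS replicate 1 the log2 fold change was -0.41 (adjusted p = 0.136 in edgeR). Eef1d passed in edgeR when the presence of Y-linked counts was a term of the fit (-0.73, adjusted p = 0.0416), with library totals only (0.0411) and with at least 10 counts in every library (0.045). The exchange subunits Eef1b2 and Eef1g were at 357, 227 and 199 and at 237, 158 and 142 CPM in PBS, and at 202 to 224 and 128 to 159 CPM in WGP, so that the distance from WGP was mostly that of PBS replicate 1. Eef1g and Eef1a1 share 56.5% and 36.8% of their 75-base windows with transcripts of other genes, so their counts are uncertain. Without that library the log2 fold changes of Eef1b2 and Eef1g were -0.03 and -0.08 (adjusted p = 0.935 and 0.802 in edgeR), against -0.32 and -0.33 with it. With the Y-linked term in the fit both passed as lower (-0.77 and -0.73, adjusted p = 0.0149 and 0.0265 in edgeR), and Eef1b2 also passed with PBS replicate 1 as the only PBS library (-0.77, adjusted p = 0.0322). The translation factor genes together took 1.92, 1.5 and 1.42% of the counts in the PBS libraries and 1.46, 1.41 and 1.37% in the WGP libraries. The first of these stood above the other 5, and 33 of the 58 tested genes were highest in PBS replicate 1 among the PBS libraries (56.9%, against 40.5% of all genes). Eef1a2, the isoform of muscle and neurons, had 0 counts in all 6 libraries, which allows at most 0.0723 to 0.0814 CPM in a library (3 counts, counting error only).

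**Figure D3:**
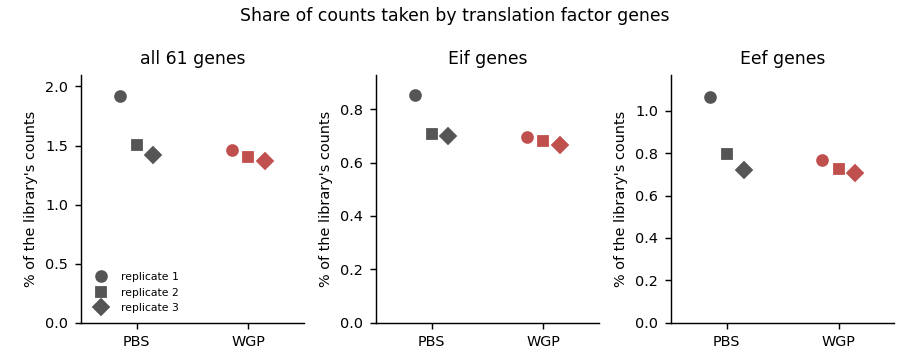
Percent of each library's counts taken by all 61 translation factor genes, by the Eif genes and by the Eef genes (3 panels, points by replicate number, axes from 0). PBS replicate 1 stands above the other 5 libraries in each panel, at 1.92% for all genes against 1.37 to 1.5%.

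The other enzymes that modify the elongation factors were set beside Eef2k, and no difference between their changes and that of Eef2k was tested. Of the 4 other tested genes of this group 0 passed in edgeR, DESeq2 or limma-voom, and 1 of them, Eef2kmt, had an unadjusted p under 0.05. Eef2kmt, an eEF2 lysine methyltransferase despite the likeness of its name to that of the kinase, was at 8.43, 17.4 and 10.2 CPM in PBS and 17.7, 18.4 and 24.9 in WGP, on the opposite side of 0 from Eef2k (log2 fold change 0.76, SE 0.34, adjusted p = 0.184 in edgeR). Alg1 overlaps 17.6% of the exons of Eef2kmt on the other strand, so reads there cannot be assigned without strand. The eEF1A lysine methyltransferase Eef1akmt4 had 33, 12 and 0 counts in PBS and 130, 50 and 136 in WGP, too few for a call (log2 fold change 2.78, SE 1.69, adjusted p = 0.346). Gm49333 overlaps 30.7% of its exons on the same strand, so reads there are ambiguous as well. Eef1akmt1 and Eef1akmt2 were at 5.69 to 13.7 CPM with log2 fold changes of 0.31 and 0.19, and Eef1akmt3 had 1 count in WGP replicate 3 and 0 elsewhere. Eef2kmt was named after its values were seen.

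The eIF4F group, which binds the cap and unwinds the leader, had its largest difference at a cap-binding paralog of eIF4E and not at eIF4E itself. Eif4e, the cap-binding protein, was at 36.6, 40 and 39.9 CPM in PBS and 38.3, 53.9 and 34.6 in WGP (log2 fold change 0.12, 95% interval -0.34 to 0.59). Eif4e3, a cap-binding paralog, was at 23.5, 46.5 and 44.4 against 57.7, 68 and 65.2 CPM. Its groups did not overlap, with PBS replicate 1 well below the other libraries, and its log2 fold change of 0.74 (SE 0.25) had an adjusted p of 0.0825 in edgeR. Without PBS replicate 1 the log2 fold change was 0.48 (adjusted p = 0.0888). Gm20696 overlaps 14.8% of the exons of Eif4e3 on the same strand, so reads there are ambiguous. Eif4e3 passed as higher with the replicate number as a block (0.80, adjusted p = 0.0415), with Y-linked counts as a covariate (1.44, 0.0042) and with PBS replicate 1 as the only PBS library (1.44, 0.0118). Eif4e2, which competes for the cap and represses translation, was at 74.5, 68.1 and 81.3 against 93.7, 104 and 97.2 CPM (0.40, adjusted p = 0.102). Eif4h, a cofactor of the helicase, was at 187, 204 and 200 against 268, 250 and 253 CPM (0.38, adjusted p = 0.083 in edgeR and 0.0175 in DESeq2). The naming of Eif4e2 and Eif4h came after their values had been looked at.

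The helicase paralogs Eif4a1 and Eif4a2 did not move alike in value. Eif4a1 was at 389, 401 and 404 CPM in PBS and 430, 385 and 357 in WGP, with 62.9% of its 75-base windows shared with transcripts of other genes, so its counts are uncertain. Eif4a2 was at 449, 346 and 337 against 303, 243 and 286 CPM, without overlap (log2 fold change -0.44, SE 0.16, adjusted p = 0.111 in edgeR, 0.0389 in DESeq2), and at -0.30 (adjusted p = 0.21 in edgeR) without PBS replicate 1. It passed when the presence of Y-linked counts was a term of the edgeR fit (-0.70, adjusted p = 0.0277). The difference between the 2 changes was not tested. The scaffold Eif4g1, Eif4b, which stimulates the helicase, and Eif4g2, which supports initiation without the cap and had the most counts of the group, had log2 fold changes of 0.17, 0.02 and -0.09. With 1 library left out Eif4g2 ran from -0.20, without WGP replicate 2, to -0.002, without WGP replicate 3. Over the 18 refits Eif4g1 ran from 0.06 to 0.23. Over the 11 tested eIF4F genes edgeR and limma-voom called 0, and DESeq2 called 2. An unadjusted p under 0.05 was found for 4 of the 11 and for 26% of all genes. Eif4e1b, the form of oocytes, had 0 counts in every library.

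The eIF4E-binding proteins, which hold eIF4E away from the scaffold until mTORC1 phosphorylates them, did not pass in edgeR, DESeq2 or limma-voom, and with their transporter Eif4enif1 0 of 4 had an unadjusted p under 0.05. Eif4ebp2 was the most abundant at 226, 214 and 246 CPM in PBS and 256, 191 and 240 in WGP, and its log2 fold change was 0.00 (95% interval -0.34 to 0.35). Eif4ebp1 was at 64.5, 43.5 and 49.1 against 67.1, 56.5 and 66.9 CPM (0.28, -0.15 to 0.70), or 0.45 (adjusted p = 0.121) without PBS replicate 1 and 0.16 without PBS replicate 2. Eif4ebp3 had 42 counts over the PBS libraries, all in replicate 2, and 11, 28 and 0 in WGP.

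The eIF2 and eIF2B genes, through which the integrated stress response acts, had 9 tested members. None passed in edgeR, DESeq2 or limma-voom. An unadjusted p under 0.05 was found for 26% of all genes and for 1 of these 9. That was Eif2s2, the eIF2β subunit, at 49, 55.2 and 48.5 CPM in PBS and 38.6, 38 and 32.7 in WGP (log2 fold change -0.48, SE 0.17, adjusted p = 0.1), which passed in edgeR with library totals only (-0.59, adjusted p = 0.0494). Eif2s1, the eIF2α subunit that stress kinases phosphorylate, was at 70.2, 62.6 and 42.5 against 46.5, 63.5 and 43.9 CPM (-0.19, 95% interval -0.69 to 0.32). With 1 library left out it ran from -0.37, without PBS replicate 3 or WGP replicate 2, to -0.04, without PBS replicate 1, and it was -0.45 with Y-linked counts as a covariate. The exchange factor subunits Eif2b1 to Eif2b5 had log2 fold changes from -0.26 to 0.27, the latter being Eif2b5, the catalytic subunit, at 30.3, 35.8 and 27.3 against 32.3, 30.2 and 49.9 CPM. Its difference rested on WGP replicate 3, without which it was 0.0034. Without PBS replicate 1 Eif2b2, the lower end of the range, went from -0.26 to -0.10 and Eif2b3 from -0.01 to -0.35. Eif2a, an alternative initiator tRNA carrier unrelated to the eIF2α subunit, was at 76.5 to 84.5 CPM in PBS and 76.2 to 82.1 in WGP. The third eIF2 subunit, eIF2γ, is encoded on the sex chromosomes and so lies outside the 61 genes. Its X-linked gene Eif2s3x was at 17.7, 10.2 and 13.3 CPM in PBS and 24, 26.3 and 15 in WGP (log2 fold change 0.66, adjusted p = 0.22). The Y-linked copy Eif2s3y was at 0, 54.3 and 63.9 CPM in PBS and at most 0.0244 in WGP, so that PBS replicate 1 overlapped the WGP libraries. It was called lower by edgeR (adjusted p = 0.0072) and DESeq2 but not by limma-voom. As sex was partly confounded with treatment, this call cannot be told apart from a difference in sex.

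The eIF3 complex, which bridges mRNA and ribosome, differed little between the groups. Of its 14 genes 9 lay above 0 and 5 below, 0 passed in edgeR, DESeq2 or limma-voom, and 0 had an unadjusted p under 0.05. Eif3a, the large scaffold subunit with the most counts of the group, was at 463, 463 and 438 CPM in PBS and 436, 477 and 384 in WGP (log2 fold change -0.07, 95% interval -0.39 to 0.24). Eif3c was at 221, 251 and 235 against 235, 276 and 255 CPM (0.12, -0.19 to 0.42). Its log2 fold change was 0.07 without PBS replicate 1 and ran from 0.01 to 0.21 over the 18 refits. The largest differences among well counted genes were 0.30 for both Eif3k and Eif3f, and Eif3f passed when PBS replicate 1, its highest PBS library, was left out (0.53, adjusted p = 0.0449 in edgeR). With PBS replicate 1 as the only PBS library the log2 fold change of Eif3f was -0.08. Eif3j2, a near-identical copy of Eif3j1 with 87.4% of its windows shared, held 8 to 72 counts a library. Eif5a and Eif6, the latter a factor that keeps the ribosomal subunits apart, had log2 fold changes of 0.02 (-0.35 to 0.38) and 0.06 (-0.28 to 0.40).

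**Figure D4:**
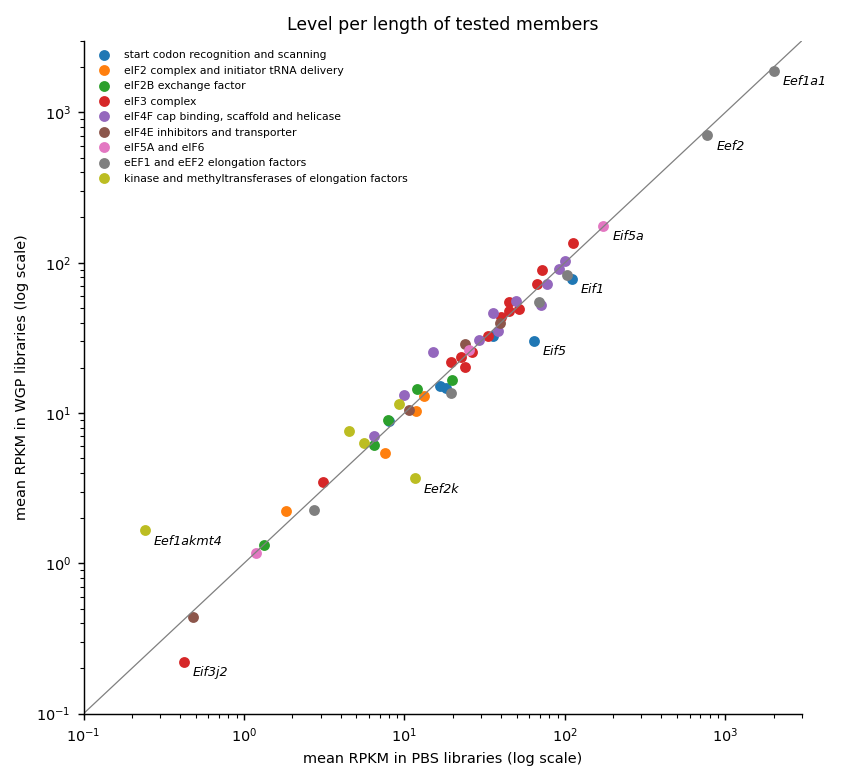
Mean RPKM (TMM-scaled CPM per kilobase of exon) of the 58 tested genes in PBS (x axis) and WGP (y axis), both on log scales, coloured by role, with the line of equality. Most genes lie along the line from about 1 to 2013 RPKM, with Eif5 and Eef2k below it and the sparsely counted Eef1akmt4 above it.

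The other genes of the translation machinery, from lists chosen with earlier results of these data known, were set beside the factors. No gene passed in edgeR among 10 of termination and ribosome rescue (2 at an unadjusted p under 0.05, and 1 called by DESeq2), 14 of hypusine, diphthamide and selenocysteine elongation (0 and 0) or 10 mitochondrial translation factors (0 and 0), and limma-voom called 0 in each. Among 21 aminoacyl-tRNA synthetases and cofactors 1 rose, Wars, an interferon-induced synthetase, from 45.7, 66.5 and 57.4 CPM in PBS to 124, 219 and 152 in WGP (log2 fold change 1.55, adjusted p = 0.0013). Among the 4 eIF2α kinases 1 rose, Eif2ak2 (PKR), activated by double-stranded RNA and induced by interferon, from 43.1, 44.3 and 49.3 CPM to 81, 85.8 and 92.6 (0.92, adjusted p = 0.0025). DESeq2 also called 1 gene lower in each of these 2 lists, and limma-voom called none lower. Over all genes tested 7.54% were higher, 6.81% were lower and 26% had an unadjusted p under 0.05. The median log2 fold changes of the synthetases and of the kinases were -0.03 and -0.03.

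Of 18 targets of the integrated stress response 2 were higher and 3 lower, where 7.54% and 6.81% of all genes were, with a median log2 fold change of -0.51. DESeq2 called 2 higher and 5 lower, and limma-voom 2 and 4. Slc7a11, the cystine transporter, rose from 36.7, 37.9 and 20.6 to 170, 168 and 128 CPM (2.29, adjusted p = 0.0002). Ppp1r15a (GADD34), the phosphatase subunit that reverses eIF2α phosphorylation, was at 1478, 1551 and 937 CPM in PBS and 317, 196 and 299 in WGP (-2.29, adjusted p = 0.0002). Atf3 fell by 1.51 on the log2 scale and is also in the dissociation response list, whose summed level was lower in every WGP library. Atf4, the transcription factor at the head of the response, was at 533, 419 and 328 against 209, 203 and 201 CPM (-1.06, adjusted p = 0.0031). Mthfd2, a mitochondrial folate enzyme, rose from 20 to 24.2 CPM in PBS to 45 to 47.8 CPM in WGP. The same holds for the naming of Atf4 and Mthfd2.

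Among 18 measured regulators of initiation outside the family, 1 rose and 2 fell, a share close to that of all genes (7.54% higher and 6.81% lower). DESeq2 called 1 higher and 3 lower, and limma-voom 1 and 1. Larp1, an mTORC1 substrate that binds mRNAs of the translation machinery, rose from 267, 246 and 203 to 391, 396 and 342 CPM (log2 fold change 0.66, adjusted p = 0.016), and lost the call in 5 of 18 refits. Pdcd4, which blocks the eIF4A helicase, fell from 121, 64.2 and 55.9 to 29.5, 29.6 and 41.7 CPM (-1.26, adjusted p = 0.0155), and lost it in 1 refit, without WGP replicate 1 (adjusted p = 0.0691). Without PBS replicate 1, its highest library, it was -0.84. Paip2b, an inhibitor of the poly(A)-binding protein, was at 4.88 to 9.65 CPM in WGP against 12.8 to 19.5 in PBS (-1.22, adjusted p = 0.0489), and lost it in 11 of 18.

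**Figure D5:**
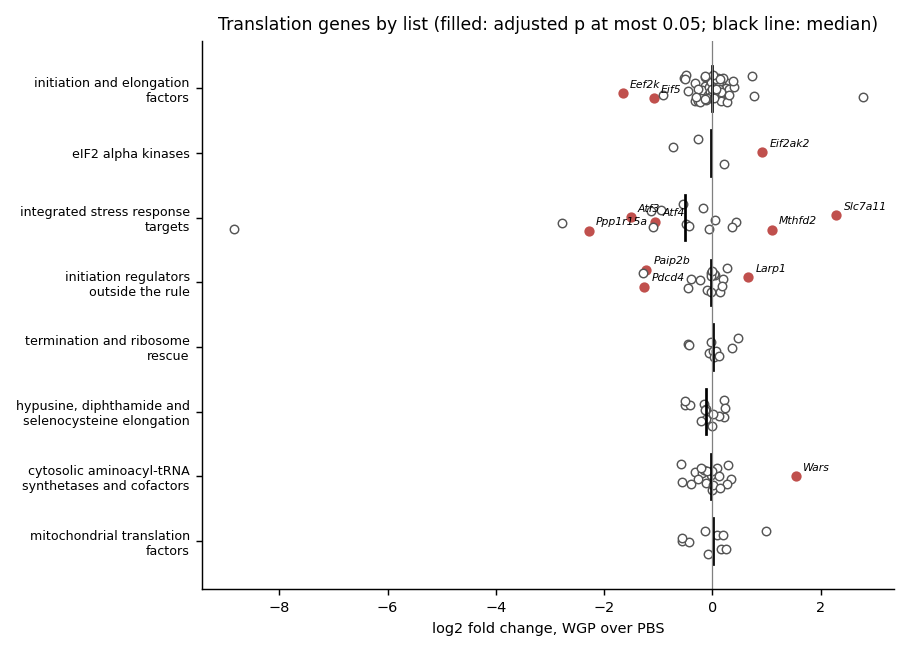
Log2 fold change of WGP over PBS (x axis) for the tested translation factor genes and 7 further lists of translation genes (rows), 1 point a gene, with filled points past an adjusted p of 0.05 and a black line at each median. The factors cluster near 0 (median -0.01) with Eif5 and Eef2k to the left, and the integrated stress response targets reach from Vldlr, listed at 0 CPM in the WGP libraries, on the left to Slc7a11 at 2.29 on the right.

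Promoter letters were compared as a description. Of the 61 genes 45 matched an entry of the RefSeq promoter table (GRCm38.p6), read over the 250 bases before each start on both strands. The E-box CACGTG was in 12 of these (26.7%, against 7.81% of 16522 genes), the CRE half-site TGACG in 22 (48.9%, against 23.1%), the GC box GGGCGG in 33 (73.3%, against 47.5%) and the amino acid response core TGATGCAA in 0 (against 0.956%). Eef2k, with 3 starts, had an E-box and a GC box before the first, a GC box alone before the next and no motif before the last. Eif5, with 1 start, had GC boxes only of these 4 motifs. The 12 tested genes with the E-box had a median log2 fold change of 0.07 and the 32 without it -0.02.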

How the data were processed

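RNA of CD45+CD11b+ pancreatic cells was sequenced as 3 PBS and 3 WGP single-end libraries. The authors aligned the reads to mm10 with STAR 2.6 and deposited raw counts per Ensembl gene from HTSeq 0.10.0, without normalization. The strand setting and annotation release are not given in the sources used here. Library totals were 35334645 to 43341834 counts. Symbols, biotypes and exon lengths came from GENCODE vM21 (GRCm38). WGP was compared with PBS in R 4.3.3 with edgeR 4.0.16 (quasi-likelihood test, TMM) over 14430 protein-coding genes, those whose RLE-normalized counts added up to 10 or more, with Benjamini-Hochberg adjustment over all of them. A call needed an adjusted p of at most 0.05. The SE is the absolute log2 fold change over the square root of F. Every adjusted p is edgeR's unless DESeq2 1.42.0 or limma 3.58.1 (voom) is named. The script was tested on simulated data. Genes were named if they passed, had the largest change or most counts in a role, were core factors, or were among the 3 smallest p of a list. The members and lists were chosen with earlier results of these data known. Alternatives were other scalings, filters, tools, depths, designs and each library left out.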

Additional observations from a re-analysis of the deposited data

How the results depend on the processing

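Eif5 and Eef2k stayed lower past the threshold in all 18 refits, and the median log2 fold change of the tested factors stayed between -0.10 and 0.04. The number of lower genes rose from 2 to 3 with upper-quartile scaling, 5 with library totals only, 4 with at least 10 counts in every library, 7 with Y-linked counts as a covariate, 4 without the PBS libraries with Y-linked counts (chosen after seeing the data, with 1 PBS library assumed to vary like the WGP libraries) and 5 in DESeq2, and was 2 to 3 with 1 library left out. The number of higher genes rose from 0 to 1 with the replicate block, the Y-linked covariate, without the PBS libraries with Y-linked counts and in DESeq2, and was 0 to 1 with 1 library left out. Calls over all genes, in either direction, numbered 2071 in the main fit, 2072 with upper-quartile scaling and 2080 with library totals only. They numbered 2207 of 10729 with at least 10 counts in every library, and 2692 in DESeq2. With the replicate block they numbered 1945, and with the Y-linked covariate 1795. The cause of the changes in number was not tested. Deviations of same-numbered libraries from their group means had correlations of 0.0027, -0.045 and 0.0105. These show no strong deviation shared over all genes, but cannot settle whether the replicate numbers pair the libraries. With the replicate block 1 gene, Eif4e3, was higher and 2 were lower. Among the genes named by the rule given above, without those named after their values were seen, 41 log2 fold changes changed sign. None of these was past the threshold in either fit. With Y-linked counts as a covariate these were Eif3j2 1.01, Eif4ebp1 -0.024, Eif5a -0.26, Eif4a1 0.0064 and Eif4b -0.089, and without the PBS libraries with Y-linked counts Eif3j2 1.02, Eif4ebp1 -0.022, Eif5a -0.26, Eif4a1 0.0089 and Eif4b -0.087. Outside that rule, genes such as Eif1b (0.15), Eif1ad (-0.29) and Eif3f (-0.079) also changed sign in the latter refit. Eif4ebp2 was -0.0081 with RLE size factors, -0.029 with upper-quartile scaling, -0.10 with library totals only, -0.00016 with filterByExpr, -0.011 with at least 10 counts in every library, -0.0069 with the replicate block, -0.0082 in limma-voom and -0.0081 in DESeq2. Upper-quartile scaling gave Eif5a -0.012 and Eif4b -0.013, and library totals only Eif6 -0.044, Eif5a -0.092 and Eif4b -0.087. With 1 library left out the range was -0.17 to 0.045 for Eef1a1, -0.23 to 0.011 for Eef2, -0.056 to 0.013 for Eif2a, -0.15 to 0.0056 for Eif3a, -0.10 to 0.034 for Eif4a1, -0.085 to 0.12 for Eif4ebp2, -0.036 to 0.084 for Eif4b, -0.067 to 0.18 for Eif5a, -0.016 to 0.12 for Eif6 and -0.090 to 0.25 for Eif4e. Copies in the genome were not looked for, and 5 genes with at least 50% of their windows in other transcripts were left out instead (chosen after seeing the data), with 0 higher and 2 lower. Low counts limit Eef1akmt4, Eif3j2 and Eif4ebp3.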
